A study of Mus musculus with 6 samples.

Results

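The G1 cyclins, their kinases, the retinoblastoma gene Rb1 and the transcription factor gene E2f1 were followed in mouse Th1 cells cultured with and without ALX-5407, a small molecule that blocks the glycine carrier GlyT1 (gene Slc6a9). The group was defined by name as 10 genes (Ccnd1, Ccnd2, Ccnd3, Ccne1, Ccne2, Cdk2, Cdk4, Cdk6, Rb1 and E2f1) of the 54532 genes counted, and all 10 were among the 15938 genes with enough counts to be tested. Of these 10 genes, 8 rose under ALX-5407, by 1.22-fold (Rb1) to 2.29-fold (Ccne1), and 0 fell. In edgeR's test at an adjusted p under 0.05, 47.7% of all genes tested passed, 24.5% as higher and 23.2% as lower. The other two, Ccne2 and Ccnd1, had fold changes of 1.02 and 1.03 that did not pass the test. Each of the 8 genes was higher in every treated library than in every untreated one, as were 28.4% of all genes tested, while 27.1% were lower in every treated library.

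CD4+ T cells were isolated by negative selection from spleens of male C57BL/6 mice 6 to 8 weeks old, activated with antibodies to CD3 and CD28, and grown for 72 h with IL-2, IL-12 and an antibody to IL-4, the conditions that direct cells toward the IFN-γ-producing Th1 type. All 6 libraries shared these conditions. In 3 of them (Th1) the medium held vehicle (DMSO), and in the other 3 (Th1 + ALX-5407) it held ALX-5407 at 500 nM, by the labels for the same 72 h. The labels call the replicates biological but do not say whether they came from separate mice, so the p-values measure the spread between these 6 cultures.

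Total counts were between 30801753 and 36727788 per library. The T cell marker list (13 genes, among them Cd3e, Cd4 and Trac) summed to between 4490 and 4820 CPM (the count scaled to the library's size) in Th1 cells and between 4360 and 4510 CPM under ALX-5407, with 3 of its genes higher and 6 lower. Of 5 genes of the Th1 type, Tbx21 was higher (log2 fold change 0.34), Ifng (-0.79) and Stat4 (-1.16) were lower, and the sum was 1210 to 1390 CPM against 984 to 1020 CPM. Of 8 B cell markers, 5 were higher under ALX-5407, from a sum of 63.5 to 70.1 CPM in Th1 cells to a sum of 79 to 81.6 CPM. Most of that sum was Ighm (mean 55.3 CPM in Th1 cells and 62.7 CPM under ALX-5407), which did not pass. Of 9 myeloid markers, S100a8 and S100a9 had 0 counts, only Cd68 was tested and lower, and the sum was 15.5 to 21 CPM against 5.38 to 6.3 CPM. Natural killer markers (1 of 5 tested, and higher) summed to 2.05 to 3.48 CPM against 4.96 to 5.58 CPM. Nearly all of that sum was the tested gene, Eomes (mean 2.5 and 5.17 CPM). Platelet markers (2 of 4 higher) summed to 3.72 to 5.07 CPM against 7.84 to 10.4 CPM, most of it Itga2b (mean 3.61 and 6.95 CPM). CD8 T cell markers (1 of 2 lower) summed to at most 9.59 CPM, dendritic cell markers (2 of 6 tested, 0 passing) to at most 4.87 CPM and erythroid markers (1 of 6 tested, 0 passing) to at most 0.91 CPM. The 6 stromal and endothelial markers, with Col3a1 and Cdh5 at 0 counts, 1 higher and 1 lower, summed to 75.2 to 83.3 CPM against 63.1 to 66.5 CPM. Nearly all of that sum was Pecam1 (mean 77.6 and 62.3 CPM), the gene that was lower. The part of other cell types in the results was not tested.

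The 10 genes form the switch that commits a cell to DNA replication. D-type cyclins are made in response to mitogens and, in T cells, to antigen receptor and IL-2 signals, and they activate the kinases Cdk4 and Cdk6, which phosphorylate the Rb1 protein. Unphosphorylated Rb1 protein binds and holds back E2F transcription factors, and once released these raise the transcription of replication genes and of E-type cyclins, whose partner Cdk2 phosphorylates Rb1 protein further. Transcript counts carry no information on phosphorylation or on protein levels.

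Whether ALX-5407 changed the D-type cyclins was examined first. Ccnd2 (chromosome 6, 127125162 to 127152193, GRCm38, minus strand), the cyclin that T cells induce on activation, had 709, 733 and 645 CPM in the Th1 libraries and 1010, 1030 and 1070 CPM under ALX-5407. The groups did not overlap, and Ccnd2 rose 1.49-fold (log2 fold change 0.58, SE 0.072, adjusted p = 7.08e-06 by edgeR, Benjamini-Hochberg over every gene tested). Over all genes tested, 3910 were higher and 3695 lower, a split that was 4484 and 3246 with library totals alone and 3413 and 4158 with upper quartile scaling. In whole cultures, a higher level in each cell and a larger share of cells that express the gene cannot be told apart.

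Ccnd3 (chromosome 17, 47505051 to 47599691, plus strand), the D-type cyclin most tied to lymphocyte expansion, had 412, 361 and 364 CPM in Th1 cultures and 509, 517 and 471 CPM under ALX-5407. All treated values lay above the untreated ones, and the rise was 1.32-fold (log2 fold change 0.40, SE 0.076, adjusted p = 0.000393 by edgeR). A gene on the other strand, Bysl, shares 361 exon bases with it, 4.11% of the exon bases of Ccnd3, and was itself higher (log2 fold change 0.67, adjusted p = 2.58e-05 by edgeR). A processed copy, Ccnd3-ps, matches Ccnd3 at 96.3% identity over 881 bases but had at most 7 counts in any library.

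Ccnd1 (chromosome 7, 144929931 to 144939925, minus strand), the cyclin typical of epithelial and mesenchymal cells, was close to absent. It had 8, 19 and 13 counts in Th1 cells and 14, 20 and 13 counts under ALX-5407, and the groups overlapped. The log2 fold change was 0.038 with a 95% interval from -1.0 to 1.08 (adjusted p = 0.96 by edgeR), so that neither a doubling nor a halving could be told from no change at this depth. Exons of Oraov1 on the other strand cover 23.4% of the exon bases of Ccnd1, and Oraov1 had 318 to 508 counts and was lower (log2 fold change -0.46, adjusted p = 0.00956 by edgeR).

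**Figure D1:**
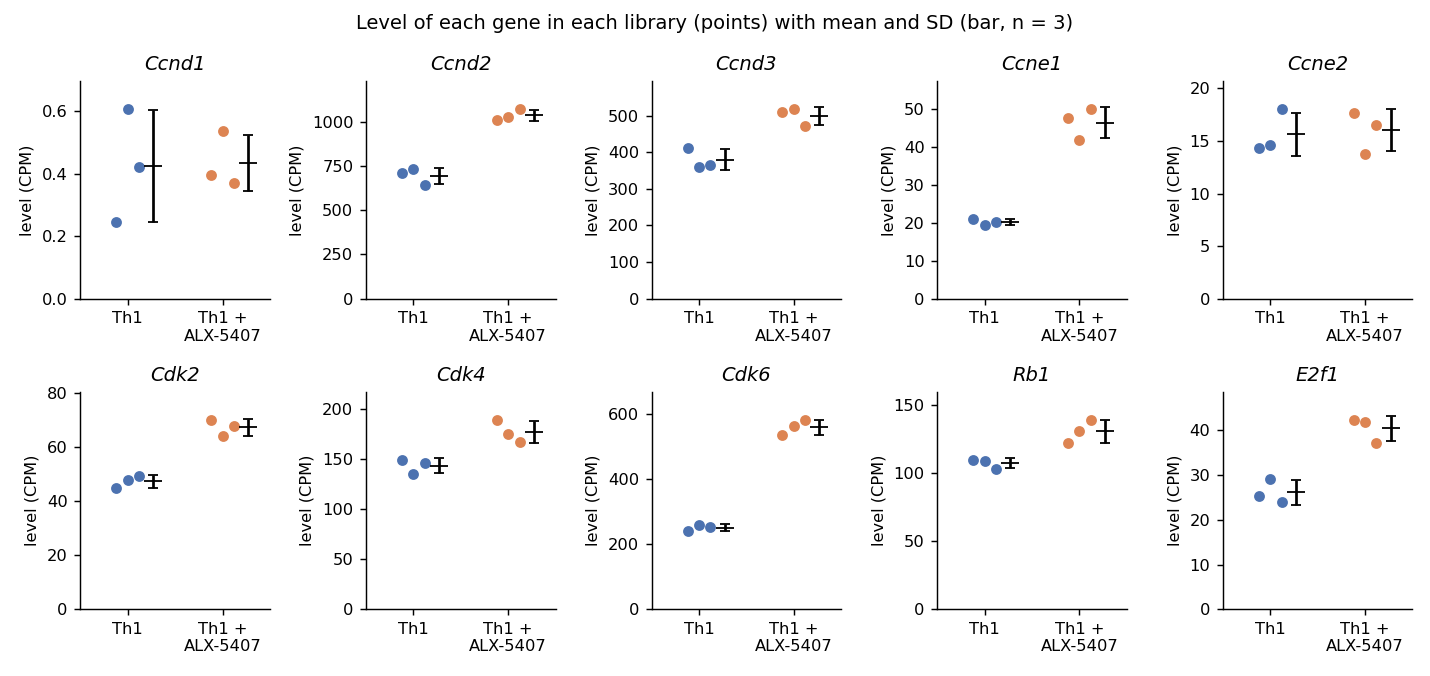
Level of each of the 10 genes (vertical axis, CPM, starting at 0 in each panel) in the 3 Th1 and 3 Th1 + ALX-5407 libraries (points), with the mean and SD of each group (black bar, n = 3). The groups are apart for Ccnd2, Ccnd3, Ccne1, Cdk2, Cdk4, Cdk6, Rb1 and E2f1, and overlap for Ccnd1 and Ccne2.

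Per length, Ccnd2 was the most abundant of the D-type cyclins in every library, as it was in CPM. The length used is that of the merged exons of all annotated transcripts (9409 bases for Ccnd2, 8775 for Ccnd3). The transcripts made in these cells may be shorter, so levels per length, ratios and shares compare different genes only roughly. Its level was 73.9 ± 4.85 CPM per kilobase of exon (SD, n = 3) in Th1 cells and 110 ± 3.29 under ALX-5407, against 43.2 ± 3.31 and 56.9 ± 2.77 for Ccnd3 and 0.0902 ± 0.0383 and 0.0923 ± 0.0189 for Ccnd1. The sum of the D-type cyclins went from 117 ± 6.43 to 167 ± 1.64 CPM per kilobase (SD, n = 3 each), which is 1.43-fold. Its makeup overlapped between the groups, with Ccnd2 at 63.1% ± 2.0 of the sum in Th1 cells and 65.9% ± 1.7 under ALX-5407 (SD, n = 3 each). The ratio of Ccnd2 to Ccnd3 was 1.6, 1.89 and 1.65 in Th1 cells and 1.85, 1.86 and 2.12 under ALX-5407. These ranges overlapped, and the log2 ratio differed by 0.18 (exact two-sided permutation test, p = 0.3), in a design whose smallest possible p is 0.1.

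The kinases of the D-type cyclins were compared next. Cdk6 (chromosome 5, 3341485 to 3531008, plus strand), the partner that predominates in many blood cells, had 239, 260 and 253 CPM in Th1 cultures and 534, 561 and 580 CPM under ALX-5407. Each treated library had over 2 times the level of each untreated one, and the fitted rise was 2.23-fold (log2 fold change 1.16, 95% interval 1.00 to 1.31, adjusted p = 4.03e-09 by edgeR). By p-value Cdk6 was number 73 of the 15938 genes. Cdk6 and Ccne1 were the only members that also had an absolute log2 fold change over 1, which 3.36% of all genes tested had as higher and 6.68% as lower.

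Cdk4 (chromosome 10, 127063534 to 127067920, plus strand), the other partner of D-type cyclins, had 149, 135 and 146 CPM in Th1 cultures and 189, 175 and 167 CPM under ALX-5407. The treated libraries were all higher, by a smaller step than for Cdk6 (1.23-fold, log2 fold change 0.30, SE 0.074, adjusted p = 0.00286 by edgeR). Its exons overlap those of Tspan31 on the other strand over 641 bases, 19.7% of its exon bases. Tspan31 had 1377 to 2044 counts and a log2 fold change of 0.23 (adjusted p = 0.029 by edgeR), and whether the counting used strand is not given in the sources used here. The bases before the start of Cdk4 are shown because they carry 4 copies of the E-box CACGTG, the palindrome bound by Myc and related factors, written in capitals.
Cdk4 promoter, chr10:127063285-127063533 (RefSeq, GRCm38.p6, plus strand, 5′ to 3′): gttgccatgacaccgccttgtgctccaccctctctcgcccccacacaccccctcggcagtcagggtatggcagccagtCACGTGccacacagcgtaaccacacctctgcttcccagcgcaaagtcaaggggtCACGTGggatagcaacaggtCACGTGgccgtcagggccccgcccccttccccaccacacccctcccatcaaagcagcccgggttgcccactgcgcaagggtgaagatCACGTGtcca
Each copy begins 172, 118, 98 or 11 bases before the RefSeq start site. Among 32851 RefSeq windows of the same 250 upstream bases, 6.02% held at least 1 E-box and 0.061% (20 windows) held 3 or more. Of the 10405 tested genes with a window, 9.63% held at least 1 E-box. The window of Cdk6 held 1 E-box, and those of the other 4 members with a window held 0. Myc itself went from 174 ± 5.31 to 259 ± 24.4 CPM (SD, n = 3 each, log2 fold change 0.57, adjusted p = 1.62e-05 by edgeR), while its partner Max was lower (139 ± 16.7 to 99.7 ± 2.27 CPM, log2 fold change -0.48, adjusted p = 0.000185 by edgeR). A match in these letters does not show binding in these cells.

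The ratio within the kinase pair was higher in every treated library than in every untreated one. Per length, Cdk6 stood at 17.9 ± 0.777 and Cdk4 at 44.2 ± 2.31 CPM per kilobase in Th1 cells, and at 39.9 ± 1.64 and 54.5 ± 3.44 under ALX-5407 (SD, n = 3 each). The ratio of Cdk6 to Cdk4 was 0.371, 0.447 and 0.402 in Th1 cells and 0.656, 0.744 and 0.805 under ALX-5407. Per merged exon length Cdk4 was thus the higher of the pair in all 6 libraries, whereas in CPM Cdk6 was the higher. The ranges of the ratio did not overlap. The log2 ratio was higher by 0.85 under ALX-5407 (exact two-sided permutation test, p = 0.1, the smallest this design can give). As a share of the pair, Cdk6 went from 28.9% ± 1.9 to 42.3% ± 2.5 (SD, n = 3 each), and the sum of the pair from 62.1 ± 1.64 to 94.5 ± 1.81 CPM per kilobase, a ratio of 1.52.

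Rb1 (chromosome 14, 73183673 to 73325822, minus strand), the pocket protein gene that the kinases act on, had 110, 109 and 103 CPM in Th1 cultures and 122, 131 and 139 CPM under ALX-5407. The groups did not overlap, and the rise was the smallest of the 8 (1.22-fold, log2 fold change 0.28, SE 0.073, adjusted p = 0.00428 by edgeR). Exons of Rcbtb2 and Lpar6 on the other strand cover 14.9% of the exon bases of Rb1, and these genes had at most 353 and 101 counts. Of the related pocket proteins, Rbl1 rose from 81.5 ± 1.42 to 113 ± 5.65 CPM (SD, n = 3 each, log2 fold change 0.48, adjusted p = 3.61e-05 by edgeR), and Rbl2 had 65.7 ± 5.76 and 73 ± 6.15 CPM (log2 fold change 0.15, adjusted p = 0.157 by edgeR). Per length, Rb1 held 44.5% ± 1.5 of the sum of Rb1, Rbl1 and Rbl2 in Th1 cells and 43.2% ± 0.49 under ALX-5407 (SD, n = 3 each).

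E2f1 (chromosome 2, 154559407 to 154569892, minus strand), the E2F family member that activates replication genes, had 25.4, 29.2 and 23.9 CPM in Th1 cultures and 42.3, 41.9 and 37.2 CPM under ALX-5407. The lowest treated library lay above the highest untreated one, and E2f1 rose 1.55-fold (log2 fold change 0.63, SE 0.094, adjusted p = 4.40e-05 by edgeR). Of the other activating members, E2f3 went from 21.8 ± 2.13 to 35 ± 1.2 CPM (SD, n = 3 each, log2 fold change 0.69, adjusted p = 1.67e-05 by edgeR) and E2f2 had 106 ± 3.36 and 112 ± 4.19 CPM (log2 fold change 0.069, adjusted p = 0.443 by edgeR). Per length, E2f2 was the most abundant of these in both groups, and its share of the sum of E2f1, E2f2 and E2f3 was 64% ± 2.0 in Th1 cells and 54.2% ± 1.6 under ALX-5407. The share of E2f1 was 23.3% to 26% in Th1 libraries and 28.1% to 32.1% under ALX-5407, ranges that did not overlap.

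Of the E-type cyclins, Ccne1 passed the test and Ccne2 did not. Ccne1 (chromosome 7, 38097984 to 38107534, minus strand), which activates Cdk2 at the entry to S phase, had 20.9, 19.4 and 20.3 CPM in Th1 cultures and 47.5, 41.7 and 49.8 CPM under ALX-5407. Its rise was the largest of the 10 genes (2.29-fold, log2 fold change 1.19, 95% interval 1.00 to 1.39, adjusted p = 3.91e-08 by edgeR), larger than that of 97.5% of all genes tested. Its promoter is shown for comparison with those of the kinases, since neither the E-box nor the E2F words given below occur in it.
Ccne1 promoter, chr7:38107535-38107740 (RefSeq, GRCm38.p6, minus strand, 5′ to 3′): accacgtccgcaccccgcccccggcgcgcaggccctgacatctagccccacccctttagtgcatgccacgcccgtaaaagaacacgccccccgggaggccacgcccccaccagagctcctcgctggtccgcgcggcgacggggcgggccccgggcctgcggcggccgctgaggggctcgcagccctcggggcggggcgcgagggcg
These 206 bases end where the annotated gene begins, 45 bases before the RefSeq start site. Only exact words were searched. Of all windows 1.86%, and of tested genes with a window 3.98%, held one of the longer E2F words. Their absence here does not show that E2F factors or Myc do not bind near Ccne1.

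Ccne2 (chromosome 4, 11191351 to 11204779, plus strand), which codes for the second E-type cyclin, had 14.3, 14.6 and 18 CPM in Th1 cultures and 17.7, 13.8 and 16.5 CPM under ALX-5407. The groups overlapped, and the log2 fold change was 0.033 with a 95% interval from -0.23 to 0.30 (adjusted p = 0.851 by edgeR), an interval that leaves out the rise of Ccne1. Ints8 on the other strand shares 17.4% of the exon bases of Ccne2 and had 1221 to 2193 counts, more than Ccne2, and was itself higher (log2 fold change 0.36, adjusted p = 0.0118 by edgeR). The ratio of Ccne1 to Ccne2 per length was 1.92, 1.75 and 1.48 in Th1 cells and 3.52, 3.95 and 3.96 under ALX-5407. The log2 ratio was higher by 1.16 (exact two-sided permutation test, p = 0.1, the smallest this design can give). Per merged exon length, Ccne1 was the higher of the pair in all 6 libraries, with 63% ± 3.1 of their sum in Th1 cells and 79.2% ± 1.1 under ALX-5407 (SD, n = 3 each).

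Cdk2 (chromosome 10, 128697939 to 128705031, minus strand), the kinase of the E-type cyclins, had 44.9, 47.8 and 49.5 CPM in Th1 cultures and 70.1, 64.1 and 68 CPM under ALX-5407. The groups did not overlap and Cdk2 rose 1.42-fold (log2 fold change 0.51, SE 0.076, adjusted p = 4.20e-05 by edgeR). The bases before its start are shown because they hold the short E2F core TTCCCGC, here on the other strand and in capitals, from 10 to 4 bases before the RefSeq start site.
Cdk2 promoter, chr10:128705052-128705179 (RefSeq, GRCm38.p6, minus strand, 5′ to 3′): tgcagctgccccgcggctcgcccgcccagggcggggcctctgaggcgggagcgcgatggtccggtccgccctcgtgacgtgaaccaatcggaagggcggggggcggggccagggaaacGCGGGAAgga
Of all 32851 windows, 3.82% held this core on either strand in their 250 upstream bases. Among tested genes with a window the share was 8.06%. The 250 bases of Cdk2 held 2 copies, the other of them farther upstream than the stretch printed. RefSeq windows were found for 6 of the 10 genes (Ccnd3, Ccne1, Cdk2, Cdk4, Cdk6 and E2f1), and that of E2f1 lies wholly within exons of the gene. Ccnd1, Ccnd2, Ccne2 and Rb1 were not analysed here in this respect.

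**Figure D2:**
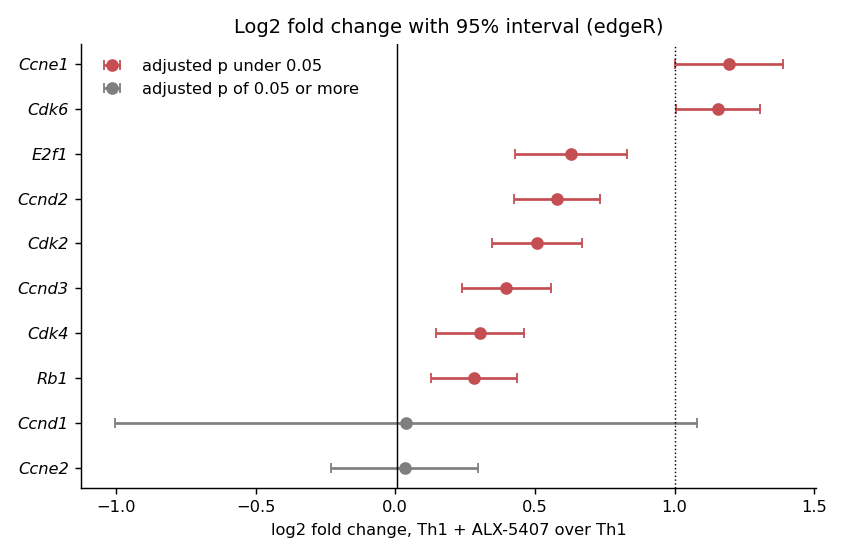
Log2 fold change of each gene in Th1 + ALX-5407 over Th1 (horizontal axis) with its 95% interval from edgeR, red where the adjusted p was under 0.05. The solid line marks the median of all genes tested (0.0053) and the dotted line a log2 fold change of 1. Ccne1 and Cdk6 stand apart at 1.19 and 1.16, and the intervals of Ccnd1 and Ccne2 include 0.

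Taken per length, the order of the 10 transcripts in Th1 cells was Ccnd2 (73.9 CPM per kilobase), Cdk4 (44.2), Ccnd3 (43.2), Cdk6 (17.9), Rb1 (17.9), E2f1 (8.3), Cdk2 (7.62), Ccne1 (7.6), Ccne2 (4.48) and Ccnd1 (0.0902). In this order the libraries of Cdk4 and Ccnd3 overlapped, as did those of Cdk6 and Rb1, of E2f1 and Cdk2, and of Cdk2 and Ccne1. With ALX-5407, Ccne1 (17.4 CPM per kilobase) stood above E2f1 (12.8) and Cdk2 (10.8), and Cdk6 (39.9) stood above Rb1 (21.7), in each case with no overlap between neighbours. Only Ccnd3 (56.9) and Cdk4 (54.5) still overlapped among neighbours in the treated order. Both orders rest on the merged exon lengths. The median log2 fold change of the 10 genes was 0.45, against 0.0053 for all genes tested and 0.051 for the 8013 genes with a mean of 500 counts or more, a range that holds each member but Ccnd1. In that range, 34.4% of genes passed as higher and 27.1% as lower. No member was lower at an unadjusted p under 0.05 in edgeR (0 of 10), and DESeq2 and limma-voom also gave 0 lower and 8 higher.

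**Figure D3:**
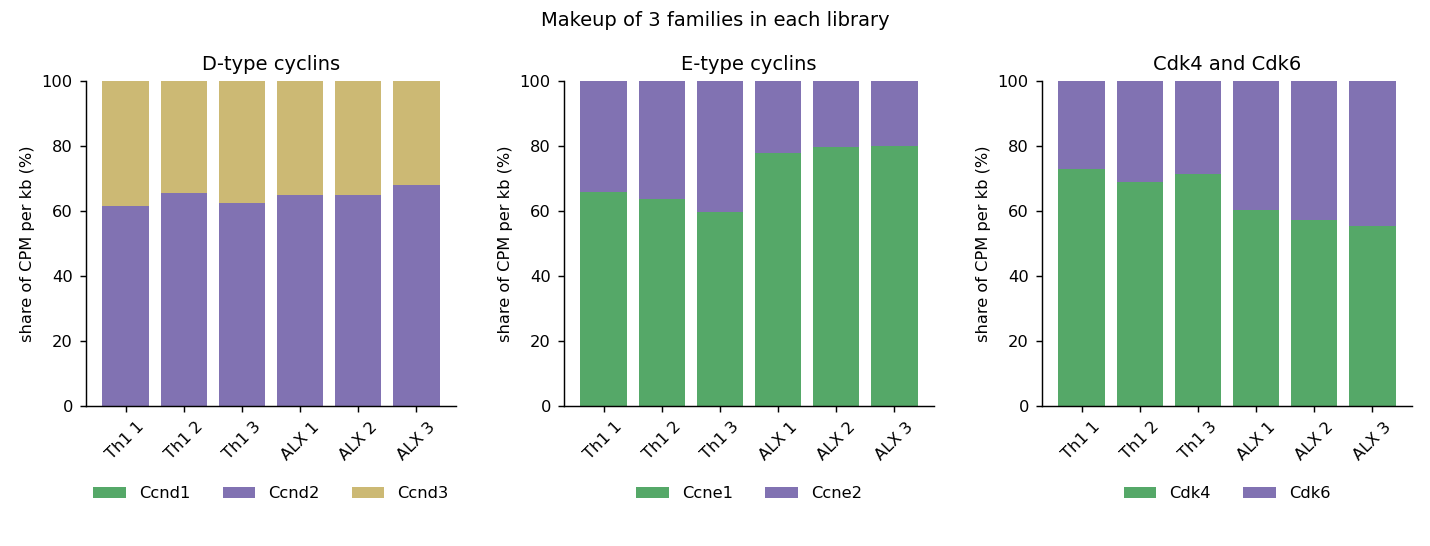
Share of each gene in the summed level per length (vertical axis, % of CPM per kilobase) of the D-type cyclins, the E-type cyclins and the pair of Cdk4 and Cdk6, one bar for each library (Th1 replicates 1 to 3, then Th1 + ALX-5407 replicates 1 to 3). Ccne1 and Cdk6 hold larger shares in every treated library, Ccnd2 and Ccnd3 keep similar shares, and Ccnd1 is too low to be seen.

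The genes that E2F factors are known to control were then examined through a list of 74 textbook targets, none of them among the 10 genes, that was compiled with earlier results of these data known and shares genes such as Rbl1, E2f8 and Cdc25a with the lists described after it. All 74 were tested, 69 rose under ALX-5407, 5 did not pass the test and 0 fell. At an unadjusted p under 0.05 in edgeR 0 fell also, and DESeq2 and limma-voom each gave 69 higher and 0 lower. Of all genes tested 24.5% rose, or 34.4% from a mean of 500 counts, which most of the list had. On the log2 scale its median change was 0.68, its lower and upper quartiles were 0.487 and 0.832, and 98.6% of its genes were above 0, against 50.5% of all genes tested. In 68 of the 74 genes the treated libraries all lay above the untreated ones, where 28.4% of all genes tested did.

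Rrm2, the regulated subunit of the enzyme that makes deoxyribonucleotides, had the smallest p-value of the list and went from 59.9 ± 3.88 to 172 ± 12.1 CPM (SD, n = 3 each). The replication licensing genes Mcm2 (87.6 ± 0.388 to 186 ± 4.33 CPM), Mcm3 (149 ± 5.62 to 281 ± 3.92 CPM) and Cdt1 (26.6 ± 2.03 to 65 ± 3.56 CPM), and the histone chaperone gene Asf1b (19 ± 0.606 to 39.9 ± 0.915 CPM), followed (SD, n = 3 each), with log2 fold changes from 0.92 to 1.29 and edgeR adjusted p-values no higher than 5.74e-08. The 5 genes that did not pass, named after their values were seen, were Gins3 (log2 fold change 0.25), E2f2 (0.069), the sliding clamp gene Pcna (0.05), Rpa3 (0.0031) and Hmgb2 (-0.10). Pcna had 329 ± 32.6 CPM in Th1 cultures and 341 ± 20.7 CPM under ALX-5407 (SD, n = 3 each).

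The promoters of the list were searched for the E2F words TTTCCCGC, TTTCGCGC, TTTGGCGC and TTTGCCGC on both strands of the 250 upstream bases. The first of these words contains the shorter core TTCCCGC. The copy of that core printed above for Cdk2 does not lie within such a word. Of the 59 list genes with a RefSeq window, 19 held at least 1 word (32.2%), against 414 of 10405 tested genes (3.98%) and 1 of the 6 member genes with a window, Cdk2. The genes were listed as known E2F targets, so this share describes the list and is not an independent observation.

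**Figure D4:**
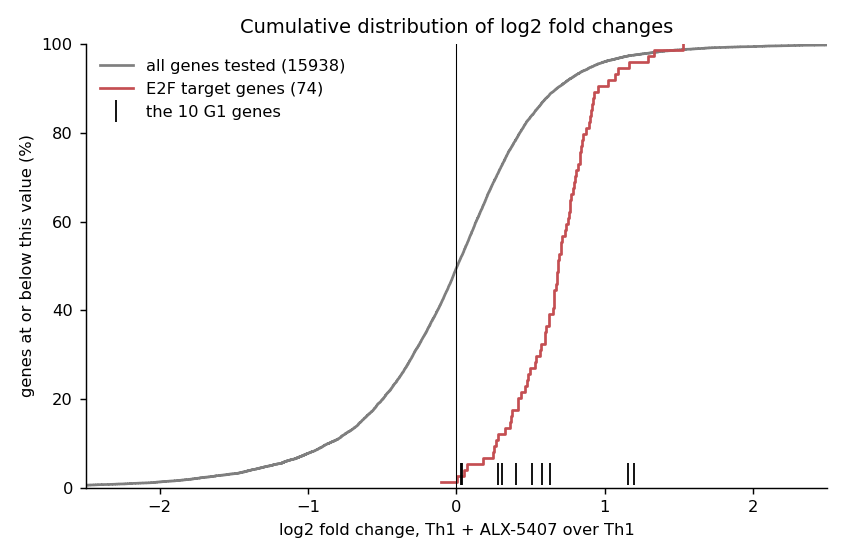
Cumulative share of genes (vertical axis, %) at or below each log2 fold change in Th1 + ALX-5407 over Th1 (horizontal axis) for all 15938 genes tested (grey) and the 74 E2F target genes (red), with black ticks at the 10 G1 genes. The red curve lies to the right of the grey one, with medians of 0.68 and 0.0053.

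Other partners of the Rb1 and E2F proteins were examined as a list. The list held genes for pocket proteins, E2F and DP factors and the DREAM complex, with Mybl2 and Foxm1. Of its 19 tested genes, 11 rose, 1 fell and 7 did not pass (median log2 fold change 0.43). Of all genes tested 24.5% rose and 23.2% fell, or 34.4% and 27.1% from a mean of 500 counts. The smallest p-values were those of Foxm1, a driver of mitotic genes (47.3 ± 1.2 to 86.6 ± 4.94 CPM), and the chromatin subunit gene Rbbp7 (161 ± 0.389 to 250 ± 8.13 CPM). The repressor E2f8 (18.5 ± 2.9 to 34.8 ± 2.14 CPM) and Mybl2 (30.8 ± 2.33 to 47.5 ± 0.985 CPM, SD, n = 3 each) followed. These genes had log2 fold changes from 0.62 to 0.91 and edgeR adjusted p-values no higher than 1.29e-05. E2f5, a repressive E2F, was the gene that fell (13.3 ± 0.972 to 8.92 ± 0.45 CPM, log2 fold change -0.58, adjusted p = 0.000771 by edgeR). Without Th1 replicate 3 the number that fell was 2.

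Of 11 tested genes that set the activity of the kinases, 6 rose and 2 fell (median log2 fold change 0.29). Of all genes tested 24.5% rose and 23.2% fell, or 34.4% and 27.1% from a mean of 500 counts. Wee1, a kinase that inhibits cyclin-dependent kinases, rose from 8.09 ± 0.631 to 18.1 ± 1.03 CPM (SD, n = 3 each, log2 fold change 1.16, adjusted p = 5.68e-07 by edgeR), and the phosphatase gene Cdc25a, which removes that inhibition, rose from 46.6 ± 1.51 to 70.7 ± 6.37 CPM (log2 fold change 0.60, adjusted p = 1.49e-05 by edgeR). Pkmyt1 (log2 fold change 0.59), Ccnh (0.40) and Hsp90aa1 (0.29) were also higher. Within the complex that activates cyclin-dependent kinases, the cyclin H gene Ccnh thus rose, while Mnat1 (log2 fold change -0.65, adjusted p = 7.68e-06 by edgeR) and Cdk7 (-0.27, adjusted p = 0.0236 by edgeR) fell. Without Th1 replicate 2, or without treated replicate 1, 1 gene fell.

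Of 8 CDK inhibitor genes, 3 were higher, 1 was lower and 4 did not pass (median log2 fold change 0.62), beside the 24.5% and 23.2% of all genes tested. Cdkn2c, which codes for the p18 inhibitor of Cdk4 and Cdk6, rose from 9.34 ± 0.487 to 23.1 ± 1.46 CPM (SD, n = 3 each, log2 fold change 1.31, adjusted p = 8.11e-08 by edgeR). Cdkn1b, which codes for the p27 inhibitor of Cdk2, fell from 213 ± 12.8 to 135 ± 8.18 CPM (log2 fold change -0.66, adjusted p = 2.55e-06 by edgeR). Cdkn2a and Cdkn1c were also higher but stayed at or below 2.01 CPM on average. With genes under a mean of 50 counts left out, 1 gene rose and the median log2 fold change was 0.073. The summed level of the 8 genes overlapped between the groups, at 662 to 783 CPM in Th1 cells and 627 to 765 CPM under ALX-5407.

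Of 19 tested genes for the turnover of G1/S proteins, 8 rose, 1 fell and 10 did not pass (median log2 fold change 0.16), beside 34.4% higher and 27.1% lower from a mean of 500 counts, and 24.5% and 23.2% among all genes tested. Gsk3b, a kinase that marks D-type cyclins for destruction, rose most clearly (130 ± 4.44 to 172 ± 6.36 CPM, SD, n = 3 each, log2 fold change 0.40, adjusted p = 0.000156 by edgeR). Ambra1, the receptor that delivers D-type cyclins to a ubiquitin ligase, rose by 0.27 on the log2 scale (adjusted p = 0.00459 by edgeR), and the ligase scaffolds Cul3 and Cul4a by 0.35 each, with Fzr1 at 0.35. Cul4b fell (log2 fold change -0.26, adjusted p = 0.0246 by edgeR), and without Th1 replicate 3, treated replicate 1 or treated replicate 2 the number that fell was 0.

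Upstream of the D-type cyclins, 12 of 22 tested genes rose and 3 fell (median log2 fold change 0.30), where 24.5% of all genes tested rose and 23.2% fell (34.4% and 27.1% from a mean of 500 counts). By p-value these were led by the early growth response gene Egr1 (105 ± 14.3 to 244 ± 24 CPM), Notch1 (158 ± 14.3 to 294 ± 0.49 CPM), Foxo3 (85.9 ± 8.29 to 153 ± 10.3 CPM), the kinase gene Akt1 (110 ± 4.75 to 169 ± 3.51 CPM) and Klf2, a quiescence factor (5.17 ± 1.34 to 13.6 ± 1.76 CPM, SD, n = 3 each), with edgeR adjusted p-values no higher than 5.51e-06. The genes that fell were Max, Mxd4 (log2 fold change -0.63) and Stat5b (-0.23, adjusted p = 0.0116 by edgeR). The list thus held rises both of genes known to promote D-type cyclins, such as Akt1, and of genes known to restrain them, such as Foxo3. Without Th1 replicate 3 the number that fell was 5.

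Past G1, 12 genes for cyclins and kinases of S phase, G2 and mitosis and for the mitotic regulator Cdc20 were tested. Of these, 11 rose, 0 fell and Ttk did not pass (median log2 fold change 0.70). At an unadjusted p under 0.05 in edgeR, and in DESeq2 and limma-voom, 0 fell also. Among all genes tested 24.5% rose, or 34.4% from a mean of 500 counts. Ccnf had the smallest p-value (20 ± 0.29 to 51.5 ± 0.338 CPM, log2 fold change 1.36, adjusted p = 2.47e-09 by edgeR), followed by Aurka (37.1 ± 3.06 to 71.7 ± 0.851 CPM), Plk1 (38.4 ± 2.6 to 71.9 ± 3.09 CPM), Bub1b (70.1 ± 2.5 to 121 ± 9.29 CPM) and Cdc20 (43.7 ± 2.52 to 72.8 ± 3.46 CPM, SD, n = 3 each). Ccna1 and Ccnb3 had 0 counts in all libraries.

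**Figure D5:**
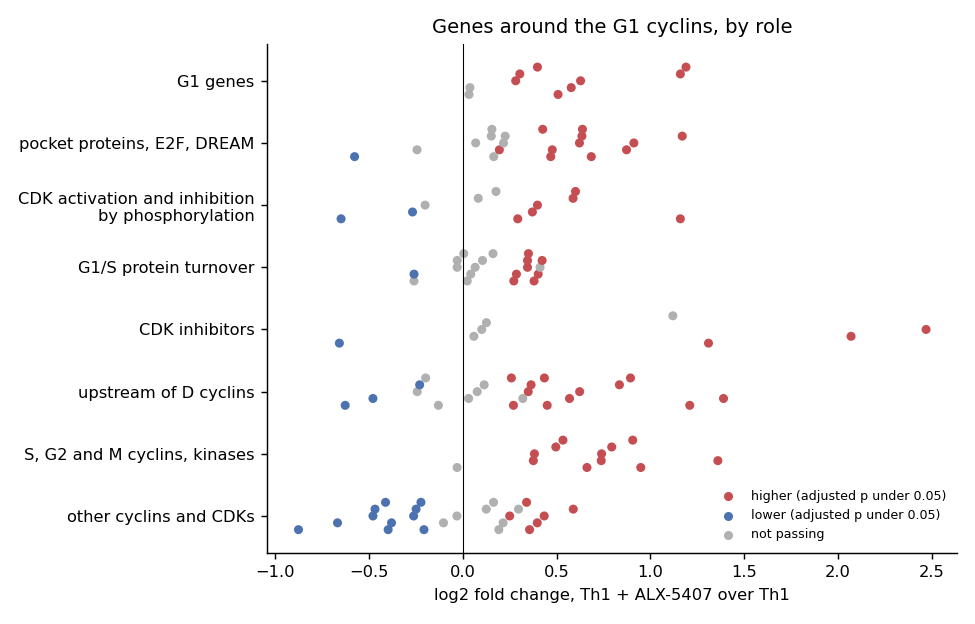
Log2 fold change in Th1 + ALX-5407 over Th1 (horizontal axis) of each tested gene (point) in 8 lists of genes around the G1 cyclins (vertical axis), red for higher and blue for lower at an adjusted p under 0.05 in edgeR and grey for the rest. Of the S phase, G2 and M genes 11 of 12 lie to the right of 0 and pass, with Ttk at -0.03, and of the CDK inhibitors 7 of 8 lie to the right, with Cdkn1b at -0.66.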

How the data were processed

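RNA from 6 cultures was sequenced. The authors deposited raw counts of reads per gene, not normalized and not pooled, with gene lengths and GRCm38 coordinates. The submitters' processing notes name fastp, HISAT2 2.0.5, featureCounts 1.5.0-p3 and mm10. Strand and multi-mapping settings are not given in the sources used here. The labels describe poly-T capture and 72 h with ALX-5407, whereas the study's methods describe ribosomal RNA depletion and a shorter exposure.

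From the counts, edgeR 4.0.16 in R 4.3.3 was run on all genes with filterByExpr (minimum count 10, minimum total 15), TMM factors (0.965 to 1.03) and the quasi-likelihood F test without covariates, with Benjamini-Hochberg adjustment over 15938 genes. DESeq2, named in the study's methods, was an alternative (1.42.0), as was limma-voom (limma 3.58.1). CPM used library sizes scaled by TMM, and CPM per kilobase the deposited gene lengths, which for the 10 genes equal the merged exon bases of all annotated transcripts. Ratios used counts plus 0.5. On simulated counts for this comparison over 15985 genes, 99% of genes changed by 1.5 on the log2 scale and 57% of those changed by 0.5 were called. Only 100 genes were changed by each size, far fewer than passed in the data. The adjusted threshold was therefore stricter there, and these shares are not the sensitivity of the comparison itself. No pair of replicates was a copy, with a chi-square of 5.65 to 22.4 per degree of freedom. Overlaps and copies were sought in GENCODE M21 (BLAST 2.17.0, 95% identity), which gives all 10 genes the same start and end. Figures used matplotlib 3.10.9 in Python 3.11.15.

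The 10 genes and all lists were chosen with earlier results of these data known. Genes named are the 10, up to 5 per list and direction with the smallest p-values among those passing, and the 3 most like the strongest member. Others (the rest of the Rb1 and E2F families, overlapping genes, Myc and Max, single cell type markers, and the promoters printed) were chosen after values were seen.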

Additional observations from a re-analysis of the deposited data

How the results depend on the processing

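The 8 genes that rose passed with the same sign in each of 15 alternatives (other scaling, filters, DESeq2, limma-voom, protein-coding genes, a replicate block and each library left out), and with the study's fold rule the count of members went to 2 and that of all genes from 7605 to 1600. Ccnd1 and Ccne2 passed in no alternative and changed sign, to -0.014 and -0.021 with upper quartile scaling and to -0.0074 and -0.014 with protein-coding genes alone. With 1 library left out they ranged from -0.25 to 0.37 and from -0.039 to 0.13. The median of the E2F targets was 0.744 with library totals alone, more than the spread between replicates from 0.684. Where leaving out 1 library moved a list's count of genes that fell by over 1.5 times, the count is given beside that list, and the cause was not tested. For CDK inhibitors this count stayed at 1 and for S phase, G2 and M genes at 0. Deviations of same-numbered replicates from their group means had r = 0.0483, 0.045 and 0.176 across genes, and those of differently numbered ones r from -0.156 to 0.13. Deviations within a group sum to 0, so these values do not settle whether the numbers mark pairs. The main fit did not use the numbers as pairs. With the replicate block all genes passing numbered 7959, and 8 members still passed. Depth limits Ccnd1 (mean 14.5 counts).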

Other observations

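Of 24 tested cyclins and kinases with roles outside the G1/S switch, 6 were higher with ALX-5407 and 11 were lower. Among all genes tested, 24.5% were higher and 23.2% lower. From a mean of 500 counts, which most of the list had, 34.4% were higher and 27.1% lower. Their median change was -0.067 on the log2 scale (0.057 with no filter on low counts). Ccnl1 (198 ± 11.9 to 108 ± 5.22 CPM) and Ccnl2 (360 ± 26.1 to 226 ± 3.65 CPM), whose proteins take part in splicing, fell with adjusted p-values of 1.09e-07 and 1.60e-06 in edgeR (SD, n = 3 each). Ccng2 (log2 fold change -0.48), Cdk5 (-0.47) and Cdk11b (-0.38) were also lower. Cdk13, a kinase of RNA polymerase II, rose from 81.6 ± 4.62 to 123 ± 3.21 CPM (log2 fold change 0.59, adjusted p = 5.10e-06 from edgeR), as did Ccng1 (0.43), Ccny (0.40), Cdk19 (0.36) and Cdk9 (0.34). Without treated replicate 2 the number lower was 7, as with library totals alone.

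Across the 6 libraries, the genes whose log2 CPM was most like that of Cdk6 were Atp6v0a2 (Pearson r = 0.9996), Aggf1 (0.9992) and Nceh1 (0.9992), with log2 fold changes of 0.84, 0.58 and 0.82. The libraries form 2 groups, so such values describe mainly the difference between the groups, and 216 of 12116 genes had r above 0.99.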
